A study of Homo sapiens with 83 samples.

Results

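Amino acid transporters are the carrier proteins that move amino acids across the plasma membrane and the membrane of the lysosome. Genes were taken as members when their symbol belonged to the SLC1A, SLC3A, SLC7A, SLC36A, SLC38A or SLC43A families or was SLC6A6, SLC6A9, SLC6A14 or SLC6A15, which gave 44 of the 60237 genes in the table. Of these, 26 had a mean of at least 1 TPM (transcript abundance per unit of gene length, scaled to the same total in every library) in SHEP and 23 in SKNAS and were tested there. They made up 28 tested members, of which 21 were tested in both lines, 5 in SHEP alone and 2 in SKNAS alone. The other 16 were below that level in both lines and were counted as silent.

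SHEP and SKNAS are established human cell lines labelled as neuroblastoma. Both carried and overexpressed N-MYC-ER, N-MYC fused to the part of the estrogen receptor that binds 4-hydroxytamoxifen (4OHT), so the MYC-OFF cells held the fusion protein too. MYC-ON cells received 4OHT, which activates the fusion, and MYC-OFF cells received ethanol, each for 24 h before dexamethasone was added to all of them to set their clocks. CT, the circadian time, is the number of hours since dexamethasone, and RNA was collected every 4 h from CT24 over 52 h. SHEP had 2 replicate series, with 28 libraries of MYC-OFF and 28 of MYC-ON from CT24 to CT76. SKNAS had 1 series, with 14 libraries of MYC-OFF up to CT76 and 13 of MYC-ON up to CT72. No 4OHT-treated line without N-MYC-ER was analysed here, so the drug and the activated fusion cannot be told apart. Each time point served as a replicate of its condition, and p-values cover the spread between these libraries, which in SKNAS came from 1 experiment.

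Cells take up most essential amino acids through exchangers, which let 1 amino acid in for another that leaves, and build up the amino acids used for exchange through sodium-coupled carriers. LAT1, encoded by SLC7A5, brings in leucine and other large neutral amino acids and works only when paired with the glycoprotein 4F2hc, encoded by SLC3A2, which carries it to the cell surface. ASCT2, encoded by SLC1A5, exchanges glutamine, and the SLC38 carriers SNAT1 and SNAT2 pull glutamine and alanine in with sodium. MYC proteins bind DNA at the E-box, whose best known form reads CACGTG, and the transcription factor ATF4, which is made when amino acids run short, acts at elements that contain TGATGNAA.

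The promoter of SLC7A5 is shown because it held the E-box letters and because SLC7A5 was 1 of the members with the largest change. It is the RefSeq sequence of the 250 bases before the start of transcription in GRCh38.p14, at chr16:87869508-87869757 on the minus strand, with the E-box in capitals.

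SLC7A5: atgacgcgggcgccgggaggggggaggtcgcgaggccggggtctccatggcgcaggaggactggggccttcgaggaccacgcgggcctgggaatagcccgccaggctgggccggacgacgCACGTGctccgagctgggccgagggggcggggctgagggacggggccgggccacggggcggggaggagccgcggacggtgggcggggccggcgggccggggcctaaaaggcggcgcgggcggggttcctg

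RefSeq windows of 300 bases, from 250 before to 50 after the start, were at hand for 33 of the 44 members, in 55 windows. The letters CACGTG, read on both strands, were in 9 of the 55 windows (16.4%), 1 for each of 9 genes, and in 7.26% of all 35116 windows. TGATGNAA, where N is any base, was in 6 of the 55 windows (10.9%), again 1 for each of 6 genes, and in 3.62% of all windows. Matches of the 2 motifs can overlap by 2 bases at most. A gene can have more than 1 start, and some windows lie inside the gene, so a match need not lie at its outermost start. The SLC3A2 match is in the window chr11:62881449-62881748, in a gene that spans 62856004 to 62888880 on the plus strand. The CACGTG and TGATGNAA matches of SLC1A5 are in different windows. A match is a description of the letters and not a measured binding site.

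The CACGTG matches of tested members are given with up to 10 bases on each side and the match in capitals, so that members that moved in different directions can be set side by side. SLC7A5 and SLC1A5 were higher in SHEP MYC-ON, SLC38A7 was lower, SLC36A1, SLC7A8 and SLC43A1 were not called, and SLC7A7 and SLC1A7 were not tested there. In SKNAS, SLC7A5 was higher, SLC36A1, SLC7A8 and SLC7A7 were lower, SLC1A5, SLC38A7 and SLC1A7 were not called, and SLC43A1 was not tested.

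SLC7A5, chr16:87869622-87869647, minus strand: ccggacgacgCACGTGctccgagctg
SLC1A5, chr19:46787328-46787353, minus strand: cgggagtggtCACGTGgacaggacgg
SLC38A7, chr16:58684741-58684766, minus strand: gatgcatgctCACGTGtctccgcagc
SLC36A1, chr5:151447550-151447575, plus strand: ctcaagggagCACGTGacctcggcct
SLC36A1, chr5:151447585-151447610, plus strand: gcggtgggatCACGTGatgaggtccg
SLC7A8, chr14:23154507-23154532, minus strand: caattagaaaCACGTGctcagttcct
SLC43A1, chr11:57515799-57515824, minus strand: gcgggcgagtCACGTGcgcgtgaaac
SLC7A7, chr14:22816081-22816106, minus strand: aatgaaaaggCACGTGggtctggtgg
SLC1A7, chr1:53142683-53142708, minus strand: actcctagacCACGTGgtctgctcta

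Of the TGATGNAA matches, those of SLC3A2, SLC38A1, SLC7A1, SLC1A5 and SLC1A3 belong to members that were higher in SHEP MYC-ON and that of SLC1A4 to a member that was lower. In SKNAS, SLC3A2 was higher, SLC38A1, SLC7A1 and SLC1A5 were not called, and SLC1A3 and SLC1A4 were not tested.

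SLC3A2, chr11:62881726-62881748, minus strand: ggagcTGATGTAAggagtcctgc
SLC38A1, chr12:46266503-46266530, minus strand: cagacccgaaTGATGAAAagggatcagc
SLC7A1, chr13:29595664-29595691, minus strand: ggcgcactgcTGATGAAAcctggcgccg
SLC1A5, chr19:46784894-46784921, minus strand: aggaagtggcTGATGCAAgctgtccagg
SLC1A3, chr5:36596358-36596385, plus strand: aggaaatgacTGATGCAAagcagggtta
SLC1A4, chr2:64989382-64989409, minus strand: cggctggagaTGATGCAAacgggagccg

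The libraries were not alike in the spread of their values. TPM sum to 1000000 in every library and keep no read depth, so a lower TPM and less of all other RNA cannot be told apart. Across genes, the median log2(TPM + 1) of a library lay between 3.93 and 4.17 in SHEP. In SKNAS it ran from 2.97 to 4.38 in MYC-OFF, with 10 of 14 libraries at 3.8 or above, and from 2.76 to 4.25 in MYC-ON, with 3 of 13 at 3.8 or above. Over all genes tested, the median MYC-ON minus MYC-OFF difference was -0.04 on the log2 scale in SHEP and -0.29 in SKNAS, and became 0.03 in SKNAS when libraries were rescaled by median-of-ratios and 0.01 with the library median as a covariate. In SHEP, the CT76 library of MYC-ON series 2 stood apart. The spread over genes of its step from CT72 was 0.56 on the log2 scale, against 0.30 to 0.40 for the other steps between neighbouring SHEP time points. The markers of the label were uneven as well. PHOX2A, a transcription factor of noradrenergic neurons and neuroblastoma, was at most 0.0419 TPM in SHEP and between 37.5 and 287 TPM in SKNAS. Of the other adrenergic markers, ISL1 lay between 13.3 and 36.5 TPM in SKNAS MYC-OFF and between 6.63 and 25.7 TPM in MYC-ON, and was at most 1.495 TPM in SHEP. HAND2 lay between 65.9 and 217 TPM in SKNAS MYC-OFF, between 31.8 and 116 TPM in MYC-ON, and was at most 34.8 TPM in SHEP. Of the 6 adrenergic markers tested between the lines in MYC-OFF, 5 were higher in SKNAS and 1, CHGB, was lower at a 1.5-fold change. Of all genes, 20% were higher and 31.1% lower there. All 5 tested in SKNAS were lower in MYC-ON, beside 34.2% of all genes. Of the 3 tested in SHEP, 1 was higher and 1 lower, beside 33% and 38.9% of all genes. The sum of 9 mesenchymal markers lay between 6195 and 7933 in SHEP MYC-OFF and between 4048 and 5236 in MYC-ON. In SKNAS it lay between 820 and 2281 in MYC-OFF and between 652.5 and 2660 in MYC-ON. Of the 9, 2 (PRRX1 and FOSL1) were higher and 6 lower in SHEP MYC-ON, beside 33% and 38.9% of all genes. In SKNAS MYC-ON 0 were higher and 5 lower, beside 13.9% and 34.2% of all genes. The sum of 4 Schwann cell markers was at most 7.61 TPM, with SOX10 at most 0.262. The sum of 5 leukocyte and epithelial markers lay between 643 and 1648 for SHEP MYC-OFF and between 715 and 1229.6 for SHEP MYC-ON. For SKNAS MYC-OFF it lay between 451 and 879, and for SKNAS MYC-ON between 213 and 388. Of these markers, PTPRC was at most 0.0118 TPM in SHEP. It had a median of 94.5 TPM in the MYC-OFF and 17.7 TPM in the MYC-ON libraries of SKNAS. CD68 was present in SHEP, with a median of 45.4 TPM for MYC-OFF and 21.0 TPM for MYC-ON. Its MYC-ON level was called lower in each line (log2 difference -0.96 for SHEP, -1.43 for SKNAS). Of the 3 markers tested between the lines in MYC-OFF, 2 were higher and 1 lower in SKNAS at a 1.5-fold change. The part of these differences in the results on transporters was not tested.

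A few members held most of the transporter mRNA. The summed TPM of the 44 members was 803 ± 65.5 (SD, n = 28) for MYC-OFF and 1222 ± 147 (SD, n = 28) for MYC-ON cells of SHEP. For SKNAS the MYC-OFF sum was 631 ± 221 (SD, n = 14) and the MYC-ON sum 622 ± 226 (SD, n = 13). The 5 members that led in each group held a median of 64.2%, 67.9%, 74.9% and 76.1% of that sum in the same order. In SHEP MYC-OFF, SLC3A2 (14.8% ± 1.64, SD), SLC1A5 (14.6% ± 0.800) and SLC38A10 (14.1% ± 1.41) led with shares closer than their spread, ahead of SLC38A2 (11.5% ± 0.678) and SLC7A5 (9.08% ± 1.69). In SHEP MYC-ON, SLC3A2 (19.6% ± 1.91) and SLC7A5 (19.1% ± 2.42) stood level at the top, followed by SLC1A5 (13.96% ± 0.771), SLC38A2 (8.82% ± 1.97) and SLC38A10 (5.80% ± 1.19). SKNAS MYC-OFF cells were led by SLC1A5 (26.1% ± 5.78) and SLC38A2 (22.8% ± 4.26), which did not differ beyond their spread, and SLC7A5 held 2.84% ± 0.882. SKNAS MYC-ON cells were led by SLC1A5 (24.4% ± 3.59) and SLC3A2 (22.5% ± 5.33), with SLC38A2 (9.79% ± 2.65), SLC6A15 (8.80% ± 1.90) and SLC7A5 (8.76% ± 1.41) behind them and level with each other.

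With MYC activated, 14 of the 26 members tested in SHEP were higher, 6 were lower and 6 were not called. A call needed an adjusted p of at most 0.05 by limma and a log2 difference of at least 0.15. Over all 14362 genes tested in SHEP, 33% were called higher and 38.9% lower. At a 1.5-fold change (0.66 on the log2 scale) 7 members were higher and 3 lower, against 9.39% and 11.4% of all genes. The median difference over the 26 members was 0.24, beside -0.04 over all genes. In SKNAS, 4 of 23 members were higher, 9 lower and 10 not called, where 13.9% of the 13886 genes tested were higher and 34.2% lower. At a 1.5-fold change the SKNAS counts were 4 and 8, against 6.99% and 23.8% of all genes, and the median over members was -0.32. The SKNAS split depended on the scaling, and became 6 higher and 7 lower under rescaling and 10 higher and 6 lower with the library median as a covariate. Of those not called, SLC6A6 (0.030 and 0.52), SLC7A11 (0.18 and 0.34) and SLC1A5 (0.32 and 0.27) took the other sign under these scalings, and SLC6A6 and SLC7A6 (0.65) were called higher with the covariate. The split also depended on the time points, with 15 lower from CT24 to CT48 and 1 lower from CT52 on, and over libraries with a median of at least 3.8 there were 2 higher and 0 lower (limma, 4 lower at an unadjusted p under 0.05). The median over all genes moved too, to -0.47 from CT24 to CT48, -0.05 from CT52 on and -0.05 over those libraries. The shares of all genes called under these scalings and settings are not given, so these member counts cannot be set against them. The SHEP counts were the same 14 and 6 without the CT76 library that stood apart. Among the 21 members tested in both lines, 4 were higher in both (SLC7A5, SLC3A2, SLC6A15 and SLC43A2), 4 were lower in both (SLC6A9, SLC38A10, SLC38A9 and SLC38A6) and 1, SLC38A2, was called in opposite directions. Of the 12306 genes tested in both lines, 11.6% were higher in both, 24.1% lower in both and 2.76% called in opposite directions. All 4 that were higher in both kept that call under both scalings of SKNAS, and of the 4 that were lower, SLC38A10 and SLC38A9 lost it in SKNAS.

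**Figure D1:**
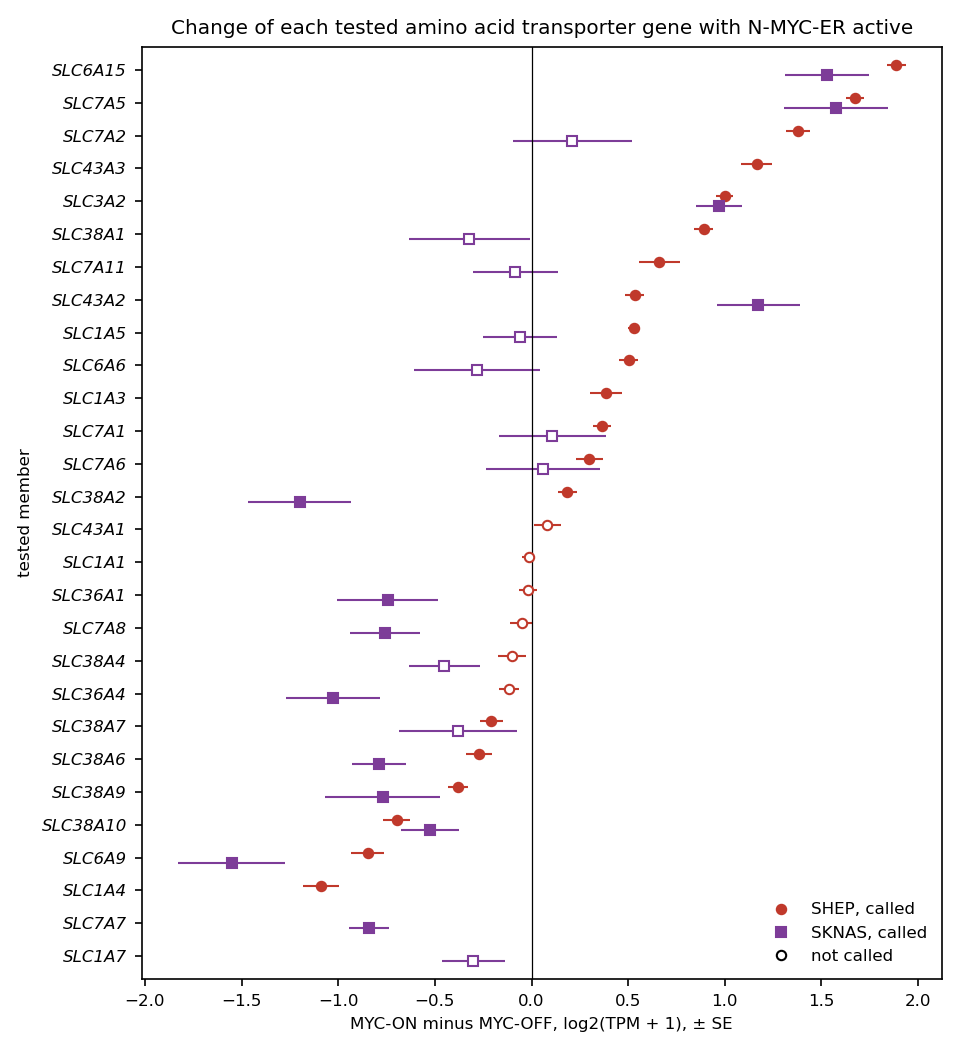
Log2 difference in TPM + 1 between MYC-ON and MYC-OFF (horizontal axis) with its standard error for the 28 tested members, with circles for SHEP and squares for SKNAS and filled symbols for called changes. SLC6A15, SLC7A5 and SLC3A2 lie to the right in both lines (1.89, 1.67 and 1.00 in SHEP and 1.53, 1.58 and 0.97 in SKNAS), and SLC38A2 lies on opposite sides.

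The heavy chain and LAT1 rose together. SLC3A2, the 4F2hc heavy chain (GRCh38 chromosome 11, 62856004 to 62888880, plus strand), had a lowest, median and highest level of 84.7, 126 and 151 TPM in SHEP MYC-OFF and of 157, 253 and 298 TPM in MYC-ON. In SKNAS it was at 33.2, 68.1 and 101 TPM in MYC-OFF and at 84.2, 130.0 and 159 TPM in MYC-ON. The SHEP conditions did not overlap, and in SKNAS 11 of 13 MYC-ON libraries were above the highest MYC-OFF library. The rise was 1.00 ± 0.0427 (SE) in SHEP (limma, adjusted p = 1.38e-25) and 0.97 ± 0.118 in SKNAS (adjusted p = 8.5e-06), on the log2(TPM + 1) scale used for every difference here. It was seen in 28 of 28 and 13 of 13 pairs of the same time point and series.

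SLC7A5, encoding LAT1 (chromosome 16, 87830023 to 87869507, minus strand), was at 37.8, 75.7 and 101 TPM in SHEP MYC-OFF and at 134, 255 and 310.1 TPM in MYC-ON. Its SKNAS levels were 4.45, 20.1 and 35.7 TPM in MYC-OFF and 19.6, 50.5 and 108 TPM in MYC-ON. Every SHEP MYC-ON library was above every MYC-OFF library, while the lowest 4 of the 13 SKNAS MYC-ON libraries lay within the MYC-OFF range. It rose by 1.67 ± 0.0468 in SHEP (limma, adjusted p = 9.12e-33) and by 1.58 ± 0.268 in SKNAS (adjusted p = 0.000201), in 28 of 28 and 13 of 13 pairs.

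**Figure D2:**
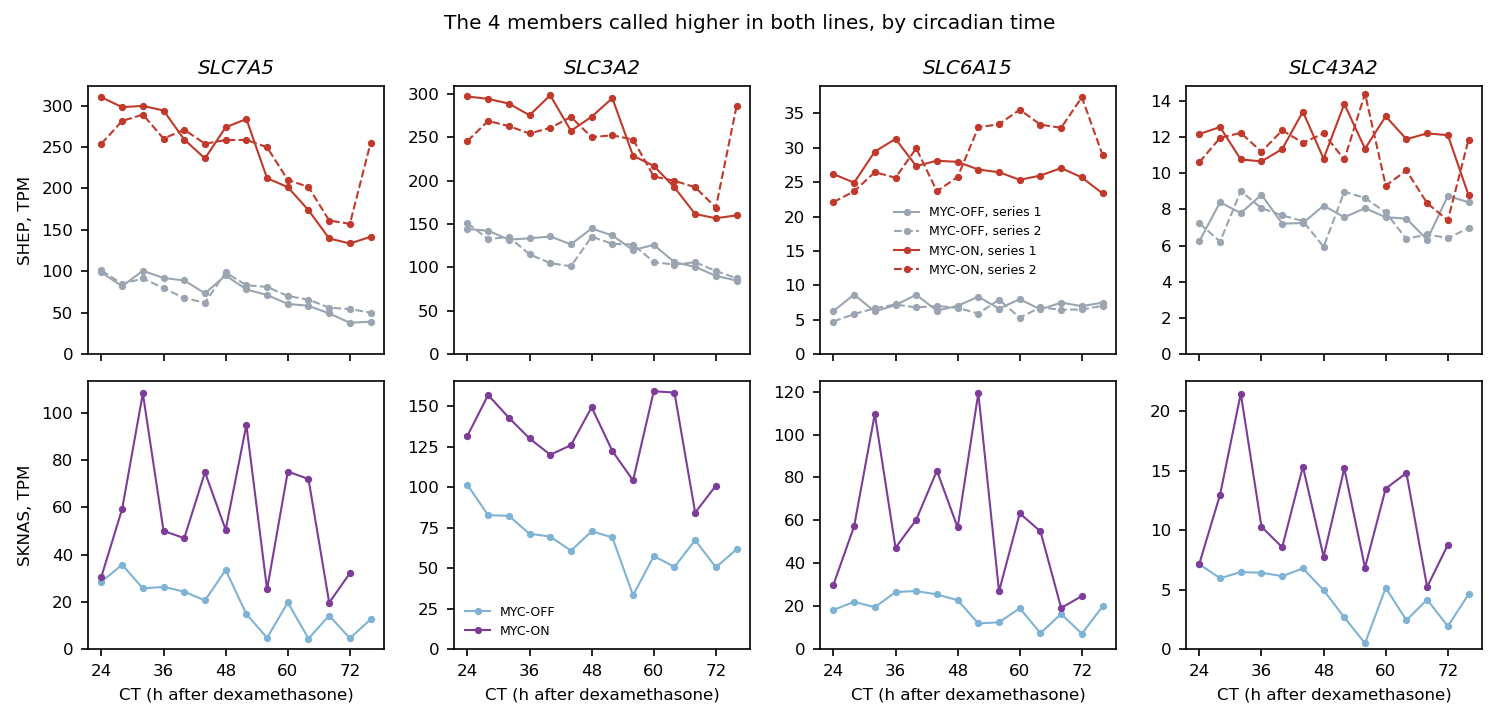
TPM (vertical axis) against circadian time in hours (horizontal axis) for SLC7A5, SLC3A2, SLC6A15 and SLC43A2 in SHEP (top, series 1 solid and series 2 dashed) and SKNAS (bottom), with MYC-OFF and MYC-ON in separate colours. MYC-ON lies above MYC-OFF at every shared time point, and in SHEP the SLC7A5 lines of both MYC-OFF series end lower at CT76 than they began at CT24.

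Because LAT1 and 4F2hc work as a pair, the ratio of their TPM was compared as well. SLC7A5 over SLC3A2 had a median of 0.637 in SHEP MYC-OFF (0.419 to 0.762) and of 1.01 in MYC-ON (0.838 to 1.10), with no overlap. In SKNAS the medians were 0.296 (0.0877 to 0.460) and 0.384 (0.233 to 0.775), with overlapping ranges. The log2 ratio was higher in MYC-ON by 0.68 ± 0.0260 (SE) in SHEP, in 28 of 28 pairs (two-sided paired permutation test, p = 2e-05, the smallest that 100000 resamples can give). In SKNAS it was higher by 0.68 ± 0.251, in 10 of 13 pairs (exact paired permutation test, p = 0.0183). In both lines SLC7A5 thus rose more than its partner.

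LAT1 is 1 of several light chains that share SLC3A2. SLC7A5 made up a median of 59.3% of the summed TPM of SLC7A5, SLC7A6, SLC7A7, SLC7A8, SLC7A10 and SLC7A11 in SHEP MYC-OFF and 76.6% in MYC-ON, and 53.2% and 78.7% in SKNAS. The 6 light chains together had a median of 1.05 times the TPM of SLC3A2 in SHEP MYC-OFF, 1.26 times in MYC-ON, and 0.598 and 0.473 times in SKNAS. Of the other light chains, SLC7A11, the cystine and glutamate exchanger xCT, rose by 0.66 ± 0.104 in SHEP (limma, adjusted p = 2.14e-07; 27 of 28 pairs), from a median of 16.9 to 24.9 TPM with overlapping ranges. Its difference in SKNAS, where the medians were 1.94 and 1.74 TPM, was -0.08 ± 0.219 (adjusted p = 0.77). SLC7A6, which exchanges cationic for neutral amino acids with sodium, rose by 0.30 ± 0.0696 in SHEP (adjusted p = 0.000162) and differed by 0.06 ± 0.294 in SKNAS (adjusted p = 0.879). SLC7A8, encoding LAT2, was not called in SHEP (-0.05 ± 0.0603, adjusted p = 0.447) and fell by 0.76 ± 0.181 in SKNAS (adjusted p = 0.00298), in 12 of 13 pairs. It was scarce, with MYC-OFF and MYC-ON medians of 1.37 and 1.22 TPM in SHEP and of 2.24 and 0.650 TPM in SKNAS.

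SLC7A7, encoding the light chain y+LAT1, was scarce. It was at 0.523, 1.72 and 2.24 TPM in SKNAS MYC-OFF and at 0.119, 0.378 and 0.864 TPM in MYC-ON. In SHEP, where its mean was under 1 TPM, it was at 0.21, 0.813 and 1.31 TPM and 0.307, 1.03 and 2.01 TPM. All 13 SKNAS pairs were lower in MYC-ON and 11 MYC-ON libraries were below the lowest MYC-OFF library, a fall of 0.84 ± 0.106 (limma, adjusted p = 1.18e-05). It held under both scalings (-0.69 under rescaling and -0.74 with the covariate).

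The 2 cationic transporters tested take up arginine and lysine. SLC7A1, encoding CAT1, rose by 0.37 ± 0.0475 in SHEP (limma, adjusted p = 2.34e-09), from a median of 43.8 to 58.3 TPM and in 28 of 28 pairs. SLC7A2, encoding CAT2, was at 5.02, 7.09 and 9.90 TPM in SHEP MYC-OFF and at 15.5, 19.7 and 26.5 TPM in MYC-ON, with no overlap, and rose by 1.38 ± 0.0620 (adjusted p = 9.84e-25). Neither was called in SKNAS with TPM as deposited, at 0.11 ± 0.277 for SLC7A1 and 0.21 ± 0.308 for SLC7A2 (adjusted p = 0.767 and 0.59). Both were called higher there under rescaling (0.44 and 0.57) and with the covariate (0.78 and 0.97).

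The SLC1 family split between its ASCT exchangers. SLC1A5, the glutamine exchanger ASCT2, was at 101, 115 and 138 TPM in SHEP MYC-OFF and at 133, 171 and 204 TPM in MYC-ON, and 26 of 28 MYC-ON libraries were above every MYC-OFF library. It rose by 0.53 ± 0.0314 in SHEP (limma, adjusted p = 3.22e-20), in 28 of 28 pairs, and differed by -0.06 ± 0.191 in SKNAS (adjusted p = 0.818), in 5 of 13 pairs upward. SLC1A4, encoding ASCT1, which exchanges alanine, serine and cysteine, was at 4.00, 7.54 and 10.8 TPM in SHEP MYC-OFF and at 0.532, 3.56 and 5.75 TPM in MYC-ON. Its fall of 1.09 ± 0.0931 (adjusted p = 1.29e-14) appeared in all 28 pairs. In SKNAS its mean was under 1 TPM, with medians of 1.45 in MYC-OFF and 0.312 in MYC-ON, and it was not tested. Among the glutamate transporters, SLC1A3 rose by 0.39 ± 0.0828 in SHEP from a median of 0.908 to 1.43 TPM (adjusted p = 5.04e-05), a call lost without series 1 (0.25). SLC1A1, at medians of 6.89 and 6.72 TPM, differed by -0.01 ± 0.0322 (adjusted p = 0.684). SLC1A7, tested in SKNAS alone, differed by -0.30 ± 0.162 (adjusted p = 0.133).

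Of the SLC6 members, SLC6A15 had the largest rise of all members in SHEP. It encodes B0AT2, a sodium-coupled carrier of branched-chain amino acids and proline (chromosome 12, 84859491 to 84913629, minus strand), and was at 4.73, 6.78 and 8.64 TPM in SHEP MYC-OFF and at 22.1, 26.96 and 37.4 TPM in MYC-ON. In SKNAS it was at 7.15, 19.3 and 27.1 TPM and at 19.2, 56.7 and 119 TPM. The SHEP conditions did not overlap, and 10 of 13 SKNAS MYC-ON libraries were above the highest MYC-OFF library. The rise was 1.89 ± 0.0484 in SHEP (limma, adjusted p = 3.26e-34) and 1.53 ± 0.219 in SKNAS (adjusted p = 4.15e-05), in 28 of 28 and 13 of 13 pairs. SLC6A6, the taurine transporter, rose by 0.50 ± 0.0488 in SHEP (adjusted p = 7.32e-13), from a median of 37.8 to 52.0 TPM, and differed by -0.28 ± 0.326 in SKNAS (adjusted p = 0.491), where it was called higher with the covariate (0.52, limma adjusted p = 0.00266).

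SLC6A9, the glycine transporter GLYT1, went the other way in both lines. Its levels were 2.61, 4.44 and 6.79 TPM in SHEP MYC-OFF and 0.603, 2.19 and 3.75 TPM in MYC-ON, and 1.25, 10.1 and 14.9 TPM and 0.361, 1.42 and 5.38 TPM in SKNAS. The ranges overlapped in both lines. It fell by 0.85 ± 0.0851 in SHEP (limma, adjusted p = 1.89e-12; 27 of 28 pairs) and by 1.55 ± 0.277 in SKNAS (adjusted p = 0.000309; 11 of 13 pairs).

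The SLC36 carriers move neutral amino acids such as proline across the lysosomal and plasma membranes. Those tested were called in SKNAS only, and the difference between the lines is given further on. SLC36A1 differed by -0.02 ± 0.0465 in SHEP (limma, adjusted p = 0.754) and fell by 0.74 ± 0.261 in SKNAS (adjusted p = 0.0283), a call lost with the library median as a covariate (-0.12). SLC36A4 differed by -0.12 ± 0.0509 in SHEP (adjusted p = 0.0361, under the size threshold) and fell by 1.03 ± 0.243 in SKNAS (adjusted p = 0.00278).

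Of the 7 SLC38 members tested, 2 were higher and 4 lower in SHEP, beside 33% and 38.9% of all genes. None was higher and 4 were lower in SKNAS with TPM as deposited, beside 13.9% and 34.2% of all genes. SLC38A1 and SLC38A7 were called higher in SKNAS with the covariate. SLC38A1, encoding the glutamine carrier SNAT1, was at 24.8, 35.9 and 43.3 TPM in SHEP MYC-OFF and at 48.1, 66.8 and 86.8 TPM in MYC-ON. The SHEP conditions did not overlap, and it rose by 0.89 ± 0.0507 (limma, adjusted p = 7.68e-21). In SKNAS it was at 13.3, 53.9 and 91.5 TPM and at 15.2, 33.5 and 123 TPM, a difference of -0.32 ± 0.313 (adjusted p = 0.407) that took the other sign under rescaling (0.045) and with the covariate (0.47).

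SLC38A2, encoding SNAT2, the carrier that cells raise when amino acids are short, was at 77.9, 93.4 and 114 TPM in SHEP MYC-OFF and at 83.4, 98.9 and 147 TPM in MYC-ON. Its SKNAS levels were 44.05, 159 and 233 TPM and 23.2, 59.6 and 148 TPM. The small SHEP rise of 0.19 ± 0.0476 (limma, adjusted p = 0.000525; 20 of 28 pairs) was not there from CT24 to CT48 alone (-0.020, adjusted p = 0.668) and not called without series 2 (0.13). The SKNAS fall of 1.20 ± 0.266 (adjusted p = 0.00173; 11 of 13 pairs) was called under both scalings, at -0.83 and -0.52.

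SLC38A10, a less studied SLC38 carrier, was 1 of the most abundant members. It was at 96.7, 112 and 127 TPM in SHEP MYC-OFF and at 39.8, 71.2 and 111 TPM in MYC-ON, and at 12.6, 49.7 and 54.4 TPM and 22.5, 31.0 and 36.4 TPM in SKNAS. It fell by 0.70 ± 0.0694 in SHEP (limma, adjusted p = 1.44e-12; 28 of 28 pairs) and by 0.53 ± 0.148 in SKNAS (adjusted p = 0.00894; 12 of 13 pairs), the second of which was not called under rescaling (-0.16) or with the covariate (-0.37).

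SLC38A9, the lysosomal arginine sensor of mTORC1, was at 11.5, 14.98 and 20.4 TPM in SHEP MYC-OFF and at 8.41, 11.3 and 16.8 TPM in MYC-ON, a fall of 0.38 ± 0.0509 (limma, adjusted p = 4.96e-09). In SKNAS it was at 2.21, 9.35 and 15.3 TPM and at 1.31, 3.46 and 12.2 TPM. That fall of 0.77 ± 0.295 (adjusted p = 0.0417; 9 of 13 pairs) was lost under rescaling (-0.47) and with the covariate (-0.05).

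SLC38A6 was at 5.76, 9.25 and 13.6 TPM in SHEP MYC-OFF and at 5.36, 7.22 and 10.1 TPM in MYC-ON, and at 12.7, 17.1 and 21.6 TPM and 3.94, 10.2 and 12.1 TPM in SKNAS. It fell by 0.27 ± 0.0685 in SHEP (limma, adjusted p = 0.000431; 23 of 28 pairs), a call lost with the 2 series means as replicates (adjusted p = 0.13) and without series 1 (-0.19), and by 0.79 ± 0.139 in SKNAS (adjusted p = 0.000274; 13 of 13 pairs). It was the 1 member whose SKNAS MYC-ON libraries were all below its MYC-OFF libraries. SLC38A7, a glutamine carrier of the lysosome, fell by 0.21 ± 0.0606 in SHEP (adjusted p = 0.00191). That fall was not there from CT24 to CT48 alone (-0.0048, adjusted p = 0.944) and was not called with the covariate (-0.044), with array weights (-0.12), with series means (adjusted p = 0.0744) or without series 2 (-0.12), while it was called from CT52 on (-0.41). SLC38A7 differed by -0.38 ± 0.305 in SKNAS (adjusted p = 0.314). SLC38A4 was not called in either line (-0.10 ± 0.0715, adjusted p = 0.194, and -0.45 ± 0.182, adjusted p = 0.0514).

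The SLC43 family holds the facilitated carriers LAT3 (SLC43A1) and LAT4 (SLC43A2) for large neutral amino acids, and SLC43A3, which is known as a purine nucleobase transporter rather than an amino acid carrier. SLC43A2 was at 5.93, 7.56 and 9.01 TPM in SHEP MYC-OFF and at 7.39, 11.8 and 14.4 TPM in MYC-ON, and at 0.487, 5.05 and 7.13 TPM and 5.22, 10.3 and 21.5 TPM in SKNAS. In SHEP 25 of 28 and in SKNAS 11 of 13 MYC-ON libraries were above the highest MYC-OFF library. It rose by 0.53 ± 0.0485 in SHEP (limma, adjusted p = 8.95e-14) and by 1.17 ± 0.213 in SKNAS (adjusted p = 0.000355). SLC43A3 was at 1.19, 2.68 and 4.77 TPM in SHEP MYC-OFF and at 4.56, 7.44 and 10.3 TPM in MYC-ON, and rose by 1.16 ± 0.0805 (adjusted p = 8.72e-18). SLC43A1 differed by 0.08 ± 0.0697 in SHEP (adjusted p = 0.286).

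In all, 5 of the 26 members in SHEP had every MYC-ON library above every MYC-OFF library (SLC7A5, SLC3A2, SLC6A15, SLC7A2 and SLC38A1), where 6.11% of all genes did, and none had every MYC-ON library below, where 6.36% did. In SKNAS none was wholly above and 1, SLC38A6, was wholly below, where the shares of all genes were 2.32% and 2.09%.

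**Figure D3:**
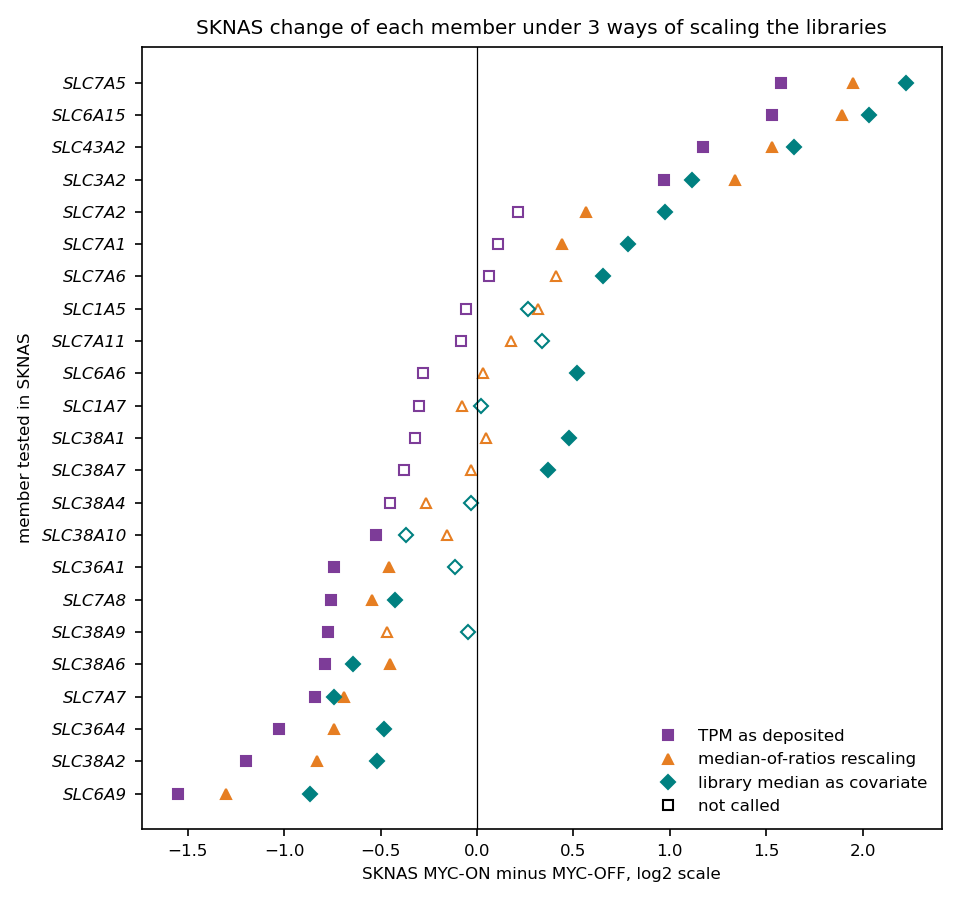
Log2 difference between SKNAS MYC-ON and MYC-OFF (horizontal axis) for the 23 members tested, with TPM as deposited, after median-of-ratios rescaling and with the library median as a covariate, and filled symbols for called changes. SLC7A5, SLC6A15, SLC43A2 and SLC3A2 stay to the right under all 3, while SLC38A1 moves from -0.32 to 0.045 and 0.47.

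The MYC effect was then compared between the lines, as an interaction over all 83 libraries. Of 28 members, 11 had a lower effect in SKNAS at the 1.5-fold threshold and none a higher one (limma; 1 higher at an unadjusted p under 0.05), where 16.2% and 5.02% of all 15942 genes did. The median difference over members was -0.39, beside -0.22 over all genes. SLC38A2 differed by -1.38 ± 0.181 (limma, adjusted p = 4.01e-09), SLC43A3 by -1.25 ± 0.170 (adjusted p = 1.03e-08), SLC38A1 by -1.21 ± 0.211 (adjusted p = 2.89e-06), SLC7A2 by -1.17 ± 0.213 (adjusted p = 7.04e-06) and SLC7A7 by -1.02 ± 0.112 (adjusted p = 1.85e-11). SLC36A4 (-0.91), SLC6A6 (-0.78), SLC7A11 (-0.75), SLC36A1 (-0.73), SLC7A8 (-0.71) and SLC6A9 (-0.70) followed. Among the 21 members tested in both lines, 9 were lower in SKNAS and 0 higher (limma), where 14.9% and 2.97% of the genes tested in both were. Of these 9, SLC38A2 was called under both scalings. SLC43A3, which passed the filter through SHEP alone and was near 0 in SKNAS, and SLC7A7, which passed through SKNAS alone, were also called under both, but the filter bears on their difference. Members with a large rise in SHEP were thus mixed, as SLC7A2 and SLC43A3 were called as different. SLC7A5 (-0.10 ± 0.181, limma adjusted p = 0.675), SLC3A2 (-0.03 ± 0.0946, adjusted p = 0.81) and SLC6A15 (-0.36 ± 0.153, adjusted p = 0.0454, under the size threshold) were not. SLC43A2 had the largest positive difference, 0.64 ± 0.146 (adjusted p = 0.000237), just under the size threshold, and was called under rescaling (0.95) and with the covariate (1.03).

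SLC43A3 in SKNAS was scarce, at 0, 0.194 and 2.38 TPM in MYC-OFF and 0.0888, 0.166 and 2.24 TPM in MYC-ON. Its mean in SKNAS was under 1 TPM, so its change there was not tested on its own. SLC7A2 in SKNAS was at 3.50, 13.6 and 25.4 TPM in MYC-OFF and at 6.04, 12.3 and 42.8 TPM in MYC-ON, so the spread within each condition was wider than in SHEP.

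**Figure D4:**
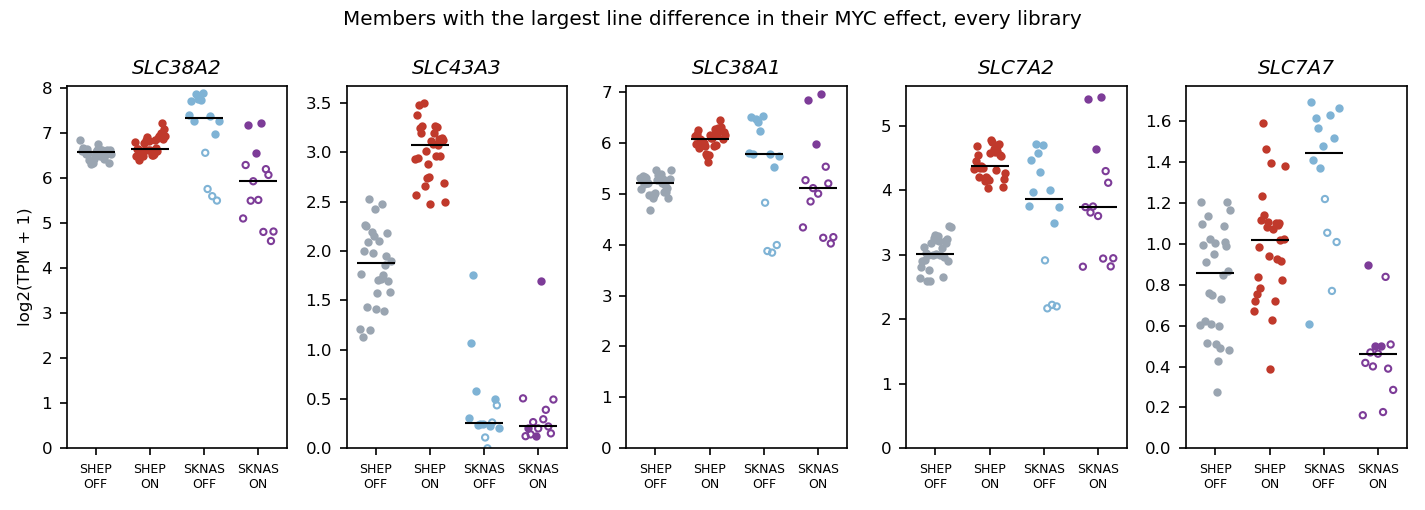
Log2(TPM + 1) (vertical axis) of SLC38A2, SLC43A3, SLC38A1, SLC7A2 and SLC7A7 in every library of the 4 groups, with a bar at the group median and open points for libraries whose median over genes was under 3.8. The SHEP points lie close together, and the SKNAS points spread with the open points mostly at the low end for SLC38A2, SLC38A1 and SLC7A2.

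Without MYC activation the lines already differed in transporters. At the 1.5-fold threshold, 3 of 28 members were higher in SKNAS MYC-OFF than in SHEP MYC-OFF and 16 were lower, where 20% and 31.1% of all genes were, and the median difference was -0.88, beside -0.16 over all genes. Members that passed the filter through 1 line alone had their direction set by it, and the 5 tested in SHEP alone were all among the lower ones and SLC1A7 was among the higher. Among the 21 tested in both lines 2 were higher and 11 lower (median -0.71), where 15.7% and 26.6% of the genes tested in both were. The higher ones were SLC1A7 (1.42), SLC6A15 (1.21) and SLC38A6 (0.83), and under rescaling and with the covariate 6 and 7 members were higher. SLC1A1, the neuronal glutamate transporter, was at 0 TPM in all 14 SKNAS MYC-OFF libraries and at 5.68 TPM or more in every SHEP library of that condition. SLC6A6 (-2.74 ± 0.172), SLC7A11 (-2.55 ± 0.149), SLC7A1 (-2.53 ± 0.147), SLC43A1 (-2.46 ± 0.0826) and SLC7A5 (-2.09 ± 0.139) were lower in SKNAS, each at a limma adjusted p of 8.08e-23 or less. SLC1A4, SLC7A6, SLC43A3, SLC38A10, SLC38A7, SLC36A4, SLC38A9, SLC1A3, SLC3A2 and SLC43A2 were lower by smaller amounts, from -1.92 to -0.71.

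In SHEP several members drifted over the time series. The trend was fitted as a change in log2(TPM + 1) per 24 h beside a 24 h rhythm and a term for the series, and called at an adjusted p of at most 0.05 and 0.15 per 24 h. In SHEP MYC-OFF 8 of 26 members fell and 1 rose, where 5.06% and 2.79% of all genes did. SLC7A5 fell by 0.47 ± 0.0602 per 24 h (limma, adjusted p = 2.83e-06), from 98.5 and 101 TPM at CT24 in series 1 and 2 to 39.1 and 49.9 TPM at CT76. SLC1A4 fell by 0.36 ± 0.0454 per 24 h (adjusted p = 2.26e-06), from 10.5 and 9.94 TPM to 5.06 and 5.17 TPM. SLC6A9 fell by 0.35 ± 0.0581 per 24 h (adjusted p = 0.000101), from 6.33 and 5.77 TPM to 3.10 and 3.05 TPM. SLC3A2, SLC7A11, SLC7A8, SLC7A1 and SLC38A1 fell less steeply, with trends from -0.27 to -0.15, and SLC38A4 rose (0.22). With 1 series left out, 3 (without series 1) to 10 (without series 2) members fell.

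In SHEP MYC-ON 10 members fell and 4 rose, where 30.2% and 16.4% of all genes did. SLC7A5 again fell, by 0.42 ± 0.0555 per 24 h (limma, adjusted p = 4.28e-07), from 310.1 TPM at CT24 to 142 TPM at CT76 in series 1, while series 2 stood at 254 TPM at CT24 and 255 TPM in the CT76 library that stood apart. Without that library, a choice made after seeing the data, the fall was 0.47, and 12 members fell and 4 rose, with SLC6A9 and SLC7A1 added. SLC7A5, SLC3A2 and SLC1A4 fell in both conditions. SLC43A1, encoding LAT3, rose by 0.58 ± 0.0622 per 24 h (adjusted p = 1.16e-08), from 3.85 and 3.77 TPM at CT24 to 11.2 and 13.5 TPM at CT76. SLC38A2, SLC6A6 and SLC1A3 also rose (0.17, 0.17 and 0.16).

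The trends of 11 members differed between SHEP MYC-ON and MYC-OFF. Each had an adjusted p of at most 0.05 and a difference of at least 0.15 per 24 h, where 38.8% of all genes did. SLC38A10 had the largest difference, -0.57 ± 0.0445 per 24 h (limma, adjusted p = 1.21e-14). In MYC-ON it went from 98.3 and 109 TPM at CT24 to 42.8 and 59.0 TPM at CT76, and in MYC-OFF it stayed between 104 and 125 TPM at CT24, CT48 and CT76. SLC38A4, SLC38A7, SLC1A4, SLC7A2, SLC7A6 and SLC36A1 also had lower trends in MYC-ON (-0.44 to -0.18), and SLC43A1, SLC7A11, SLC7A8 and SLC38A2 had higher ones (0.29 to 0.43). By adjusted p alone, 7 members differed without series 2. Without the CT76 library that stood apart 12 did, among them SLC1A5 at -0.10, under the size threshold.

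**Figure D5:**
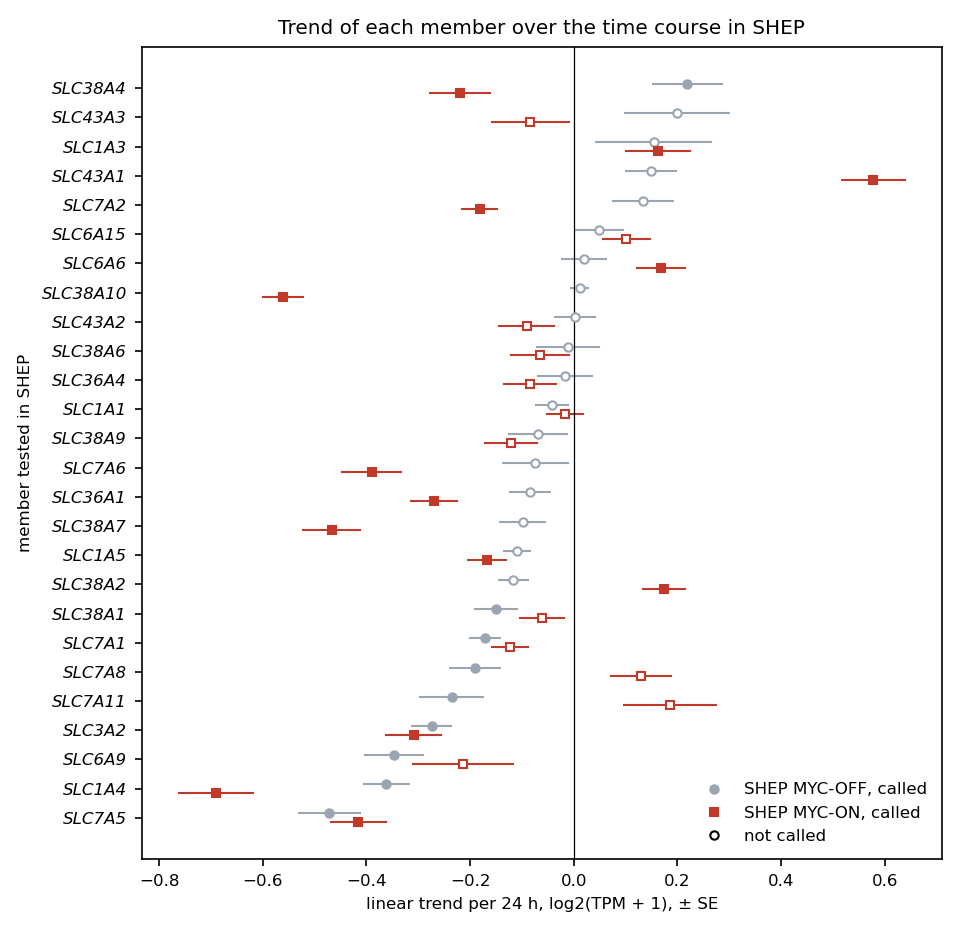
Change in log2(TPM + 1) per 24 h (horizontal axis) with its standard error for the 26 members tested in SHEP, in MYC-OFF and MYC-ON. SLC38A10 lies at 0.01 in MYC-OFF and at -0.56 in MYC-ON, SLC7A5 and SLC3A2 lie at like negative values in both, and SLC43A1 lies to the right in MYC-ON.

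In SKNAS no trend of a member was called by limma in either condition. Of all 13886 genes, 0 were called rising or falling in MYC-OFF, and 1 rising and 3 falling in MYC-ON. At an unadjusted p under 0.05, 16 of 23 members fell and 0 rose in MYC-OFF, and 0 did either in MYC-ON. The share of all genes at that unadjusted p is not given, so these counts cannot be read as particular to the members. The median trend over members was -0.60 per 24 h in MYC-OFF and -0.17 in MYC-ON, beside -0.32 and -0.18 over all genes, and the 4 MYC-OFF libraries with a median under 3.8 were all taken at CT52 or later.

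No member was called rhythmic at a period of 24 h in any of the 4 groups by the limma F test, where 0.0905% of all genes were for SHEP MYC-OFF and 0.0139% for SHEP MYC-ON. Of all 13886 genes tested in SKNAS, 0 were called rhythmic in MYC-OFF and 0 in MYC-ON. At an unadjusted p under 0.05 3 members passed for SHEP MYC-OFF and 5 for SHEP MYC-ON, where 10.1% and 8.80% of all genes passed. In each SKNAS condition 0 members passed, where 0.418% of all genes did for MYC-OFF and 0.266% for MYC-ON. SLC38A4 in SHEP MYC-ON had the lowest p (0.000165, limma adjusted p = 0.148), with an amplitude of 0.27 and a peak 12.2 h into the 24 h cycle. Neither SLC7A5 (unadjusted p = 0.546 in SHEP MYC-OFF) nor SLC3A2 (unadjusted p = 0.527, both by limma) passed. No difference in rhythm between the SHEP conditions was called for a member, with a limma adjusted p of 0.998 for SLC7A5. It was called for 0 of all 14362 genes too, so this is not particular to the members.

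The intracellular and mitochondrial carriers of amino acids, from a list of 26 genes outside the membership rule, were mixed. In SHEP 7 of 14 tested were higher and 4 lower, with a median of 0.16, beside 33% and 38.9% of all genes. In SKNAS 3 of 13 were higher and 5 lower, with a median of -0.24, beside 13.9% and 34.2% of all genes. SLC25A22, the mitochondrial glutamate carrier, rose from a median of 42.3 to 165 TPM in SHEP, by 1.88 ± 0.0468 (limma, adjusted p = 8.77e-35), and by 1.67 ± 0.247 in SKNAS (adjusted p = 5.75e-05). SFXN3 and SLC25A38, mitochondrial carriers of serine and glycine respectively, rose in SHEP (0.94 and 0.74), and SLC25A38 also in SKNAS (0.68). SLC25A18, SLC25A12 and SLC66A1, the lysosomal exporter of cationic amino acids, fell in SHEP (-0.38, -0.23 and -0.22).

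Genes that respond to amino acid shortage and enzymes that use glutamine were counted the same way, against 33% higher and 38.9% lower of all genes in SHEP and 13.9% and 34.2% in SKNAS. Of 18 genes of the GCN2 and ATF4 response tested there, 14 were higher and 3 lower (median 0.51), and in SKNAS 7 of 17 were higher and 1 lower (median 0.31). ASNS, asparagine synthetase, rose by 1.83 ± 0.174 in SHEP and by 1.34 ± 0.129 in SKNAS (limma, adjusted p = 3.63e-13 and 7.63e-07), PSAT1 of serine synthesis by 1.42 and 0.99, and TRIB3 by 1.07 and 0.83. VLDLR, ATF5 and NUPR1 fell in SHEP (-1.13, -0.71 and -0.36). Of the enzymes of glutamine and glutamate, 14 of 16 were higher and 1 lower in SHEP (median 0.73), and 5 of 17 higher and 3 lower in SKNAS (median 0.16). PPAT, which starts purine synthesis with glutamine, rose by 1.10 and 0.74, GCLC of glutathione synthesis by 1.00 and 0.63, and GLS2, a glutaminase, by 0.97 in SHEP, while GFPT1 fell there (-0.24).

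The sensors that report amino acids to mTORC1, the kinase complex that drives growth, were called at shares near those of all genes. In SHEP 13 of 36 genes were higher and 12 lower (median -0.01), beside 33% and 38.9% of all genes. In SKNAS 6 of 37 were higher and 10 lower (median -0.15), beside 13.9% and 34.2%. MLST8, a subunit of the complex, rose by 0.78 ± 0.0290 in SHEP and 1.18 ± 0.131 in SKNAS (limma, adjusted p = 7.11e-28 and 3.25e-06). LARS1, the leucyl-tRNA synthetase that also senses leucine, rose by 0.70 and 0.50, and NPRL2 of the GATOR1 complex by 0.59 and 0.35. CASTOR1, the cytosolic arginine sensor, fell in both lines (-0.80 and -1.13), as did BMT2, also known as SAMTOR, the sensor of S-adenosylmethionine (-0.64 and -0.85), and the GTPase RRAGC (-0.59 and -0.49).

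The 16 silent members were SLC1A2, SLC1A6, SLC3A1, SLC6A14, SLC7A3, SLC7A4, SLC7A9, SLC7A10, SLC7A13, SLC7A14, SLC36A2, SLC36A3, SLC38A3, SLC38A5, SLC38A8 and SLC38A11. They include SLC3A1, the other heavy chain, and its light chain partner SLC7A9, which serve cystine uptake in the kidney. SLC7A13 was listed at 0 in all 83 libraries. SLC38A5 (1.95 TPM) and SLC7A10 (1.06 TPM) reached 1 TPM in at least 1 library, and the other silent members did not. No test was made on them.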

How the data were processed

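RNA-seq of polyadenylated RNA covered 83 libraries. Per the labels and the study's methods, the authors quantified reads with Salmon 1.3.0 on GRCh38 transcripts and summed them to genes, and the deposited values are TPM, 1 per gene and library. All 83 columns were used, and 0 were left out. A symbol was repeated by 961 entries, and the 1 with the highest mean TPM stood for it. TPM keep no read depth, so the counting error of single values is unknown.

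Here log2 values were computed from the deposited TPM as log2(TPM + 1) and fitted with limma 3.58.1 in R 4.3.3, in place of the count model of the study, which needs counts. Because of the pseudocount of 1, differences of scarce genes come out too small. The fit had a trended prior variance and CT as a factor, over genes with a mean of at least 1 TPM in the line (for the comparisons between lines, in either line), with Benjamini-Hochberg adjustment over all of them. No 2 libraries held identical values.

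The study's replicate number marks a repeat of the whole experiment in SHEP. Across 14362 genes the difference of series 1 minus series 2 in MYC-OFF correlated with that in MYC-ON (r = 0.489), so the numbers pair the samples, and a fit with this block is an alternative. Permutation tests of the ratio used scipy 1.17.1 in Python 3.11.15. The fits of the MYC effect within a line and of time within a group, and the permutation test, were tested on simulated data. The fits that compared the lines, or trends and rhythms between conditions, were not.

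Every tested member is named. Values by library are given for SLC7A5, SLC3A2, up to 5 members per direction with the same call in both lines, the 5 with the largest called difference between the lines and the 3 with the steepest trend in SHEP MYC-OFF. From each other list up to 3 genes per direction with the largest change in SHEP are named. Library values of SLC1A5, SLC1A4 and medians of further members were added after the values were seen. The members and the lists were chosen with earlier results of these data known. Coordinates of genes are from Gencode 44 and promoter windows from RefSeq, both on GRCh38, and each sequence printed was checked against the genome. The alternatives tried are the pseudocount, the low-value filter, 2 scalings, array weights, parts of the time course, libraries with a median of at least 3.8, series means and leaving out a series. 1 cell type marker is not reported here, nor is the summed level of the list that holds it.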

Additional observations from a re-analysis of the deposited data

Results flagged for a closer look

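The MYC effect of 11 members differed between the lines by the limma interaction test, always lower in SKNAS than in SHEP with TPM as deposited. The differences, as log2 change in SKNAS minus log2 change in SHEP, were -1.38 for SLC38A2, -1.25 for SLC43A3, -1.21 for SLC38A1, -1.17 for SLC7A2 and -1.02 for SLC7A7. They were -0.91 for SLC36A4, -0.78 for SLC6A6, -0.75 for SLC7A11, -0.73 for SLC36A1, -0.71 for SLC7A8 and -0.70 for SLC6A9. Over all genes the median of this difference was -0.22, and 10 of 14 SKNAS MYC-OFF libraries but 3 of 13 MYC-ON libraries had a median over genes of at least 3.8. Of the 11, 6 were called after median-of-ratios rescaling, and SLC38A2 was called under both scalings, as were SLC43A3 and SLC7A7, which passed the filter on low values through 1 line alone. The part of the library medians in these differences was not tested beyond these scalings.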

How the results depend on the processing

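Over 56 results and 430 alternatives, 372 were labelled the same as the main result. For a single member this meant the same direction and side of the threshold. It held in 175 of 181 alternatives for single members in SHEP and 91 of 119 in SKNAS. For a count of members the label meant only a count near the main one. The 372 therefore mix both kinds and are not a tally of kept directions. With the SHEP series as a replicate block, 14 members were higher and 6 lower, and no call of a named member changed. In SKNAS the 4 higher members became 10 with the library median as a covariate and 2 over libraries with a median of at least 3.8. The 9 lower members became 16 with array weights, 15 from CT24 to CT48, 1 from CT52 to CT76 and 0 over libraries with a median of at least 3.8 (limma, 4 at an unadjusted p under 0.05), where fewer libraries enter. Over all genes the median SKNAS difference was -0.42 with array weights, -0.47 from CT24 to CT48 and -0.05 from CT52 to CT76. The shares of all genes called under these alternatives are not given. The members with a higher effect in SKNAS went from 0 to 1 with the covariate, 1 under rescaling and 1 with a pseudocount of 0.1, and those with a lower effect from 11 to 3 with the covariate and 6 under rescaling. Members higher in SKNAS MYC-OFF than in SHEP went from 3 to 7 with the covariate and 6 under rescaling. In SHEP MYC-OFF, 2 members rose over time under rescaling and 3 with the covariate in place of 1, 0 to 0 rose without a replicate series (limma, 1 each at an unadjusted p under 0.05), and 3 to 10 fell in place of 8. In SHEP MYC-ON 7 rose under rescaling in place of 4. By adjusted p alone, 7 to 11 trends differed between conditions without a replicate series in place of 11. These last leave-outs, and leaving out the CT76 library, were chosen after seeing the data. The log2 ratio of SLC7A5 to SLC3A2 in SKNAS was higher in MYC-ON by 1.05 over the 2 pairs with medians of at least 3.8 (exact permutation p = 0.5, the smallest 2 pairs allow). The sign turned for SLC38A2 in SHEP at CT24 to CT48 (-0.020), for SLC38A1 in SKNAS under rescaling (0.045), with the covariate (0.47), at CT52 to CT76 (0.36) and over libraries with a median of at least 3.8 (0.40), and for SLC7A2 in SKNAS with array weights (-0.33) and at CT24 to CT48 (-0.41). The cause was not tested. Leaving out a SHEP replicate series left 13 to 13 members higher and 5 to 6 lower. Read depth is not in the values, so its limit on low members is unknown.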
